A study of Arabidopsis thaliana with 13 samples.

Results

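The 9 genes described here are those with the largest rises in shoots of Arabidopsis thaliana seedlings after induction of ANAC059, once the genes of calcium sensor proteins had been left out. They are AT5G17350, AT1G77640, AT4G39670, AT2G32190, AT1G35210, AT5G66650, AT5G50915, TRM28 (AT5G03670) and IQD24 (AT5G07240). Each was read from 1 probe set annotated to that gene alone, so that they are 9 of the 13356 genes with a probe set of their own among the 22746 probe sets of the Affymetrix ATH1 array. ANAC059 and ANAC092 are closely related NAC transcription factors, and the series was made to find their early target genes.

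The ANAC059 comparison had 2 arrays of plants carrying an estradiol-inducible ANAC059 construct and 2 arrays of plants carrying the empty inducible vector. The ANAC092 comparison had 3 arrays of plants with an estradiol-inducible ANAC092 construct and 3 empty vector arrays. All these plants were 3-week-old seedlings in the Col-0 background, all received 10 µM estradiol for 5 h, and only shoots were taken. The mature leaf comparison had 1 array each of an ANAC059 T-DNA insertion line, an ANAC092 T-DNA insertion line and Col-0 wild type, all from leaf 11 of 38-day-old soil-grown plants without estradiol in the labels. The labels call the seedling arrays biological replicates but do not say how many independent lines or plants stood behind each, so the p-values measure the spread between these arrays.

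NAC factors bind DNA and switch on other genes, and those active in ageing leaves act through layers of further transcription factors, transporters and enzymes. A 5 h induction is used to catch genes that respond early after such a factor is made. Several of the families represented among the 9 genes have members known in Arabidopsis to respond quickly to wounding, cold or pathogen signals.

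Values are log2 signals that the authors computed with RMA in 3 separate sets (ANAC059 with 2 empty vector arrays, ANAC092 with 3 empty vector arrays, and leaf), and levels were compared only within a set. Empty vector replicates 1 and 2 were treated as the same 2 hybridisations in both seedling sets: over all probe sets the difference between them correlated at 0.883 from one set to the other, and the SD of the log2 difference was 0.142 for arrays of the same number, against 0.229 for replicate 1 of the ANAC092 set and replicate 2 of the ANAC059 set. The ANAC059 and ANAC092 comparisons therefore share 2 control arrays, and those arrays took part in the choice of the 9 genes. Empty vector replicate 3 entered the ANAC092 set only; the SD of its differences over all probe sets was 0.386 from replicate 1 and 0.351 from replicate 2, beside 0.178 between those 2 arrays. For ANAC092 induced replicates 1 and 3 this SD was 0.129, and it was 0.364 and 0.343 between each of them and replicate 2, which bears on every p-value of that comparison. Under the annotation used, no probe set was named for ANAC059 or ANAC092 alone, so induction and disruption were not checked at the genes themselves. Of 15 listed shoot and leaf markers 3 were measured (PRK, PORB and RCA), and of 9 listed root markers 3 were. Mean signals of the shoot markers were 9.78 to 12.30 in the ANAC092 set and 10.18 to 12.58 in the ANAC059 set. The root markers lay at 6.05 to 7.34 and 5.93 to 7.25. The leaf set had the shoot markers at 9.89 to 13.58 and the root markers at 5.25 to 5.53. Of these markers RCA, the Rubisco activase gene, rose in the ANAC059 set (0.63, limma adjusted p = 0.0251; 0.0474 to 0.139 when single arrays were left out, lost in 3 of 4 such fits: without ANAC059 induced replicate 2 or empty vector replicate 1 or 2), and neither list had another called member in either induction.

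Because the 9 genes were chosen for their rise on the ANAC059 arrays, their values there are a description and carry no test. They lay 1.13 to 1.64 higher on the log2 scale on the ANAC059 induced arrays than on the empty vector arrays (2.19-fold to 3.11-fold, median 1.21), beside a median of -0.01 over all probe sets. In whole shoots, more cells with a transcript and more transcript per cell cannot be told apart. Both induced arrays lay above both empty vector arrays for all 9, an order that goes with the choice and is no separate result. Of all probe sets, 26.2% had this order, and 1.65% were called higher by limma (adjusted p under 0.05). Genes around the edge of the rule were ranked among called probe sets with this order. The rule had an edge at IQD24, at 1.13 the smallest rise kept. Just outside it were AT5G59845 at 1.12, AT1G58170 at 1.09 and the calmodulin-like gene CML37 at 1.07. The calcium sensor genes left out, AT3G01830, AT5G39670 and AT4G27280, lay inside the range at 1.39, 1.37 and 1.26.

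**Figure D1:**
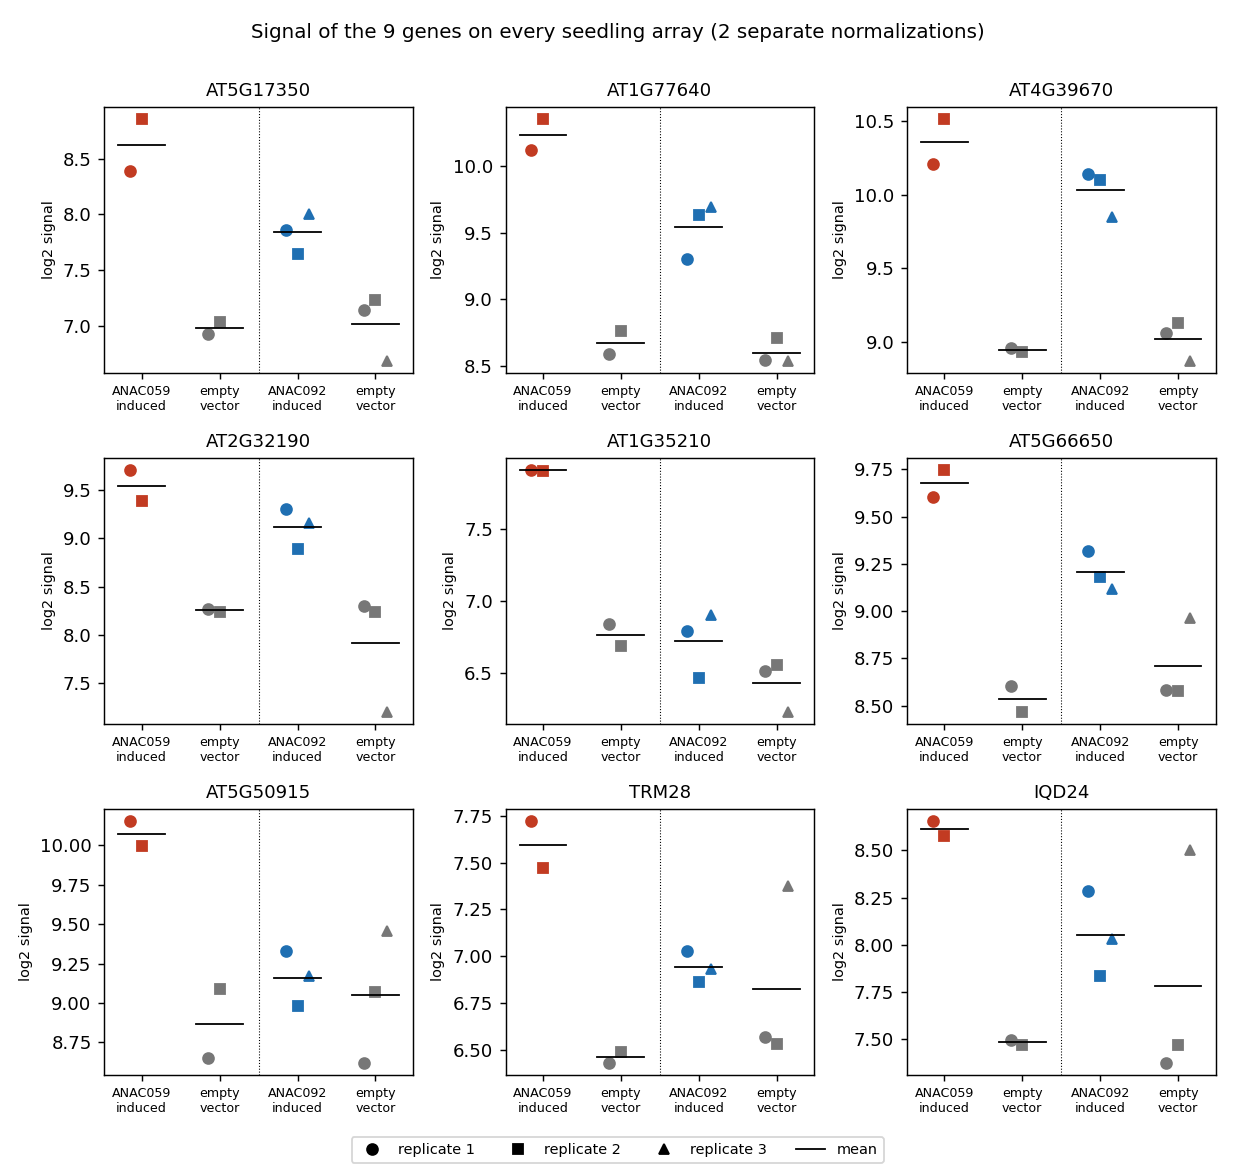
Log2 signal (vertical axis, a separate scale in each panel) of the 9 genes on the 10 seedling profiles, with replicate number as symbol and the group mean as a line; the dotted line parts the 2 normalizations. Both ANAC059 induced arrays lie above both of their controls in every panel, and empty vector replicate 3 (grey triangle) lies above both other controls of its set for AT5G66650, AT5G50915, TRM28 and IQD24.

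AT1G77640 and AT5G50915 encode transcription factors. AT1G77640 encodes an AP2/ERF-domain protein of the DREB subfamily, a group with many members that respond to stress. Its log2 signal (probe set 259729_at) was 10.12 and 10.35 on the ANAC059 induced arrays, against 8.59 and 8.76 on the empty vector arrays, a difference of 1.56 ± 0.12 (limma SE, n = 2 per group). On the ANAC092 arrays it stood at 9.30, 9.63 and 9.69, against 8.54, 8.71 and 8.54 on the empty vector arrays. The induced arrays were clear of every control in both sets, and empty vector replicate 3 was level with replicate 1. AT1G77640 rose 1.93-fold after ANAC092 induction (log2 0.95 ± 0.13 SE, n = 3 per group, limma adjusted p = 0.0120). Its adjusted p ranged from 0.00608 to 0.0700 over 11 alternative fits, and the call was lost without ANAC092 induced replicate 3 or without empty vector replicate 1 or 2.

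AT5G50915 encodes a basic helix-loop-helix (bHLH) DNA-binding protein. Its signal (248460_at) was 10.15 and 9.99 on the ANAC059 induced arrays, against 8.65 and 9.09 on the empty vector arrays, the widest spread of controls among the 9 genes in that set (SD 0.310). The rise of 1.21 ± 0.15 (SE) was 0.99 when set against empty vector replicate 2 only and 1.42 against replicate 1 only. In the ANAC092 set its induced arrays read 9.33, 8.98 and 9.17, against 8.62, 9.07 and 9.46 on the empty vector arrays. These groups overlapped: empty vector replicate 3 was above all 3 induced arrays, and the difference of 0.11 ± 0.21 (SE) did not pass (limma adjusted p = 0.887). It was -0.10 without empty vector replicate 1 and 0.32 without replicate 3.

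AT4G39670, AT2G32190 and AT5G66650 encode proteins tied to membranes, lipids or calcium transport. AT4G39670 encodes a glycolipid transfer protein family member related to ACD11, whose loss causes spreading cell death in Arabidopsis. Its signal (252908_at) was 10.21 and 10.52 on the ANAC059 induced arrays, against 8.95 and 8.93 on the empty vector arrays, a difference of 1.42 ± 0.12 (SE). The ANAC092 induced arrays read 10.14, 10.10 and 9.85, against 9.06, 9.13 and 8.87 on the empty vector arrays. The induced arrays lay above all controls in both sets with little spread among the controls. AT4G39670 rose 2.02-fold after ANAC092 induction (log2 1.01 ± 0.12 SE, limma adjusted p = 0.00697) and passed in all 11 alternative fits of that comparison (adjusted p 0.00346 to 0.0411).

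AT2G32190 encodes a small peptide with a cysteine-rich transmembrane (CYSTM) module, a type known from stress tolerance. Its signal (265674_at) was 9.71 and 9.38 on the ANAC059 induced arrays, against 8.27 and 8.23 on the empty vector arrays, a difference of 1.29 ± 0.12 (SE). Its ANAC092 induced arrays had 9.30, 8.89 and 9.16, against 8.30, 8.24 and 7.20 on the empty vector arrays. No array overlapped with the other group, but empty vector replicate 3 lay on average further below replicates 1 and 2 than the induced arrays lay above them. With this spread among the controls the difference of 1.20 ± 0.29 (SE), the highest of the 9 after ANAC092 induction, missed the threshold (limma adjusted p = 0.105). It passed in 2 of 11 alternative fits (limma adjusted p up to 0.299). These were the fit with the replicate number added and the fit without empty vector replicate 3 (0.85, limma adjusted p = 0.0363). The controls left in the latter fit took part in the choice of the genes. AT2G32190 is also listed with a second gene on 1 further probe set, which was not used.

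AT5G66650 encodes a protein of the mitochondrial calcium uniporter family, calcium channels of organelle membranes; in Arabidopsis this member is known from chloroplasts. Its signal (247047_at) was 9.61 and 9.75 on the ANAC059 induced arrays, against 8.60 and 8.47 on the empty vector arrays, a difference of 1.14 ± 0.10 (SE). For this gene the ANAC092 induced arrays read 9.32, 9.18 and 9.12, against 8.58, 8.58 and 8.97 on the empty vector arrays. The groups did not overlap in either set, although empty vector replicate 3 lay closer to the ANAC092 induced arrays than to the other controls. The difference of 0.50 ± 0.13 (SE) after ANAC092 induction missed the threshold (limma adjusted p = 0.154). It passed in 1 of 11 alternative fits (limma adjusted p up to 0.456), the one without empty vector replicate 3 (0.63, adjusted p = 0.0287). The controls left in that fit took part in the choice of the genes.

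TRM28 and IQD24 encode proteins of families that work at the microtubule cytoskeleton. TRM proteins carry TON1 recruiting motifs, through which TRM family members bring the TON1 protein to microtubules, and IQD proteins bind calmodulin and act as scaffolds at microtubules and membranes. TRM28 (250907_at) had signals of 7.72 and 7.47 on the ANAC059 induced arrays, against 6.43 and 6.49 on the empty vector arrays, a difference of 1.14 ± 0.11 (SE). On the ANAC092 arrays TRM28 stood at 7.03, 6.86 and 6.93, against 6.57, 6.53 and 7.37 on the empty vector arrays. Those induced arrays lay above empty vector replicates 1 and 2 and below replicate 3, and the difference of 0.12 ± 0.22 (SE) did not pass (limma adjusted p = 0.887). Without empty vector replicate 3 it was 0.39 (adjusted p = 0.0826), and without replicate 1 or 2 it was -0.01 or -0.03.

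IQD24 (250613_at) had signals of 8.65 and 8.58 on the ANAC059 induced arrays, against 7.50 and 7.47 on the empty vector arrays, a difference of 1.13 ± 0.09 (SE) and the smallest standard error of the 9. On the ANAC092 arrays IQD24 stood at 8.28, 7.83 and 8.03, against 7.38, 7.47 and 8.50 on the empty vector arrays. Here too empty vector replicate 3 lay above every ANAC092 induced array while replicates 1 and 2 lay below them, and the difference of 0.27 ± 0.29 (SE) did not pass (limma adjusted p = 0.779). Without empty vector replicate 3 it was 0.63 (adjusted p = 0.0918), and without replicate 1 or 2 it was 0.07 or 0.11.

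AT5G17350 and AT1G35210 are named by locus in the annotation, and no role is given for them here. AT5G17350 (250098_at), with the largest rise of the 9, had signals of 8.39 and 8.86 on the ANAC059 induced arrays, against 6.93 and 7.04 on the empty vector arrays, a difference of 1.64 ± 0.16 (SE). Both of these control values lay below the median of all values in the ANAC059 set (7.60). The 2 induced arrays differed by more than for any other of the 9 genes (SD 0.332), and the rise was 1.40 with replicate 1 alone and 1.87 with replicate 2 alone. On the ANAC092 arrays AT5G17350 stood at 7.86, 7.65 and 8.01, against 7.14, 7.23 and 6.69 on the empty vector arrays. The groups did not overlap, and the difference of 0.82 ± 0.17 (SE) missed the threshold (limma adjusted p = 0.0601). It passed in 1 of 10 alternative fits, the one with quantile normalization (0.84, limma adjusted p = 0.0315). The adjusted p was 0.237 at most, and no fit that lacked an array passed.

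AT1G35210 (245755_at) had signals of 7.91 and 7.90 on the ANAC059 induced arrays, against 6.84 and 6.69 on the empty vector arrays, a difference of 1.14 ± 0.09 (SE). Its signal on the ANAC092 arrays was 6.79, 6.46 and 6.90, against 6.51, 6.56 and 6.23 on the empty vector arrays. ANAC092 induced replicate 2 lay within the range of the controls, and the difference of 0.29 ± 0.15 (SE) did not pass (limma adjusted p = 0.518; 0.19 without empty vector replicate 3).

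Over the 9 genes, AT1G77640 and AT4G39670 were called higher after ANAC092 induction and none was called lower, where 1.40% of all probe sets were called higher and 0.831% lower. All 9 differences were above 0, where 43.2% of all probe sets were (median 0.50, beside -0.03 over all probe sets). However, those of AT5G50915 and TRM28 turned below 0 without 1 control array. For 5 of the 9 the induced arrays lay above every control, an order found at 7.98% of all probe sets. A choice by the rise over empty vector replicates 1 and 2 can favour genes that read low on those arrays, so these counts do not stand apart from the choice. Set against replicates 1 and 2 of its own set, each of the 9 genes was displaced less on the ANAC092 arrays (0.19 to 0.94) than on the ANAC059 arrays (1.13 to 1.64). That order follows in part from choosing the largest ANAC059 rises, and the difference between the inductions was not tested because the sets were normalized separately.

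Empty vector replicate 3 was not used in the choice, but replicates 1 and 2, from which its displacement is measured here, were. A choice that favours genes reading low on replicates 1 and 2 can raise replicate 3 relative to them. The values and shares below are therefore a description. Empty vector replicate 3 split the 9 genes. It lay above both other empty vector arrays for 4 genes, by 0.39 for AT5G66650, 0.61 for AT5G50915, 0.83 for TRM28 and 1.08 for IQD24. For AT5G50915 this was 0.39 from replicate 2 alone and 0.84 from replicate 1 alone. The displacement of IQD24 was 1.08 from replicates 1 and 2 on this 1 empty vector array, beside 1.13 on the ANAC059 induced arrays in a separate normalization. What lay behind either displacement was not tested. Over all probe sets, 0.0352% were higher by at least 1 on this array (8 of 22746) and 5.32% by at least 0.5; among the 9 genes IQD24 passed the larger size, and IQD24, TRM28 and AT5G50915 passed the smaller. At the low end, 1.90% of all probe sets were lower by at least 1 and 6.56% by at least 0.5, and AT2G32190 passed both sizes. Empty vector replicate 3 lay below both other controls for the remaining 5 genes, by -1.07 for AT2G32190, -0.50 for AT5G17350, -0.30 for AT1G35210, -0.22 for AT4G39670 and -0.09 for AT1G77640. A position above both or below both was common, at 42.1% and 42.0% of all probe sets. Replicates 1 and 2 themselves differed by a median of 0.07 over the 9 genes and by 0.45 at most, for AT5G50915.

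**Figure D2:**
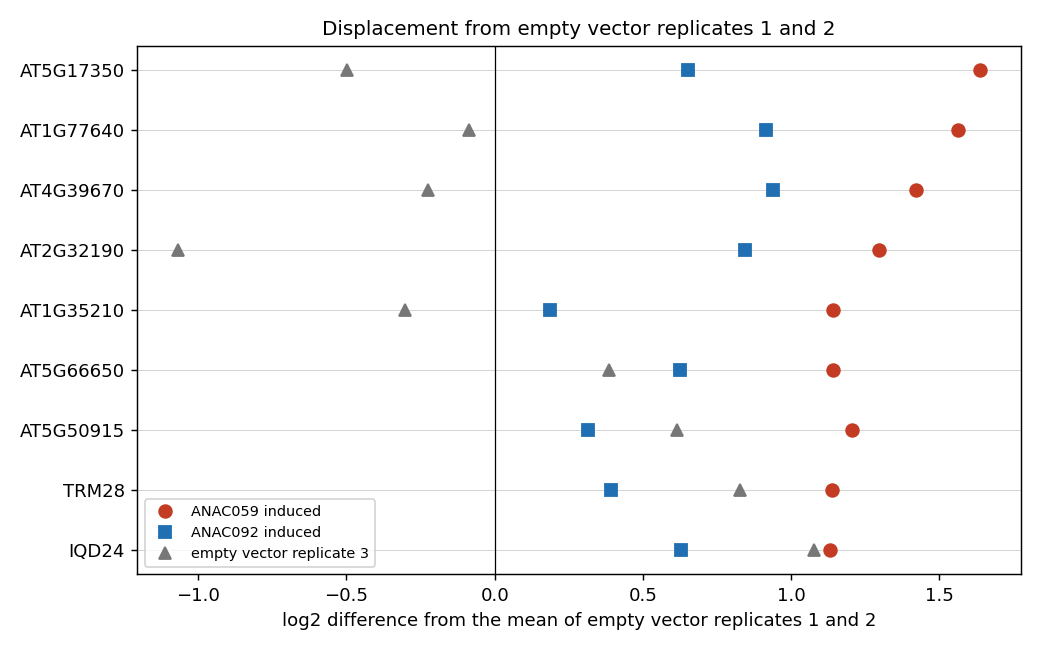
Log2 difference from the mean of empty vector replicates 1 and 2 (horizontal axis) for each of the 9 genes, for the ANAC059 induced mean (circles, n = 2), the ANAC092 induced mean (squares, n = 3) and empty vector replicate 3 (triangles, 1 array), each within its own normalization. Empty vector replicate 3 lies to the right of the ANAC092 mean for AT5G50915, TRM28 and IQD24 and to the left of 0 for 5 genes.

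A comparison of the 3 ANAC092 induced arrays with empty vector replicate 3 alone uses no array that chose the genes; the lone control is assumed to vary like the induced arrays. AT2G32190 was the 1 gene of the 9 called higher, where 2.87% of all probe sets were, and none was called lower, where 0.198% were. Its difference was 1.91 ± 0.19 (SE, n = 3 against 1, limma adjusted p = 0.0304), beside 0.85 against replicates 1 and 2, since replicate 3 was at -1.07 from them. For this gene the SD was 0.208 among the induced arrays and 0.618 among the 3 empty vector arrays, and the p-value rests on the smaller of these spreads. AT4G39670 (1.16 ± 0.16 SE, limma adjusted p = 0.0513), AT5G17350 (1.15 ± 0.17, 0.0610) and AT1G77640 (1.00 ± 0.19, 0.0974) missed the threshold at differences of 1.00 or more. AT1G35210 was at 0.49 ± 0.21 and AT5G66650 at 0.24 ± 0.13 (limma adjusted p = 0.317 and 0.419). AT5G50915, TRM28 and IQD24 lay at -0.30 ± 0.17, -0.43 ± 0.12 and -0.45 ± 0.21 (limma adjusted p = 0.456, 0.168 and 0.350), below replicate 3 on all 3 induced arrays. Replicate 3 was above every ANAC092 induced array at 41.0% of all probe sets.

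These calls depended on how the spread was estimated. In a fit of all 6 arrays in 3 groups, with replicates 1 and 2 as a group of their own, the differences from replicate 3 were unchanged. AT4G39670, AT5G17350 and AT1G77640 were then called higher along with AT2G32190, while more probe sets were called over the whole array as well. Without ANAC092 induced replicate 1 or without replicate 3 none of the 9 was called, nor was any probe set, and without replicate 2, which leaves the 2 arrays that lie close together, 5 of the 9 were called higher and TRM28 lower (-0.39, adjusted p = 0.0137), among 6027 called probe sets.

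**Figure D3:**
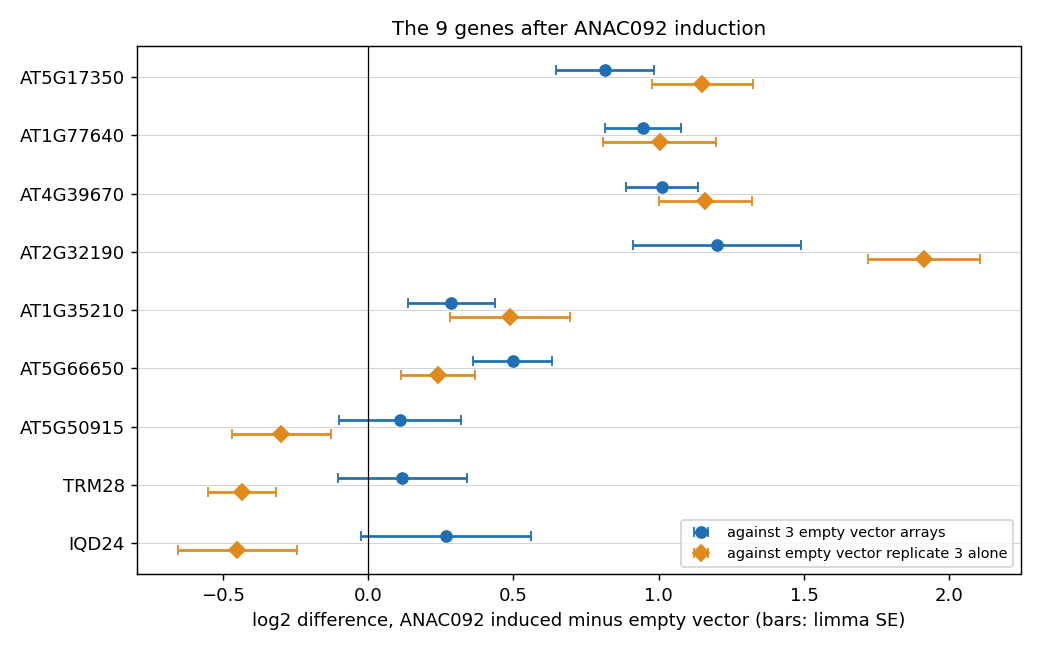
Log2 difference of ANAC092 induced minus empty vector (horizontal axis, bars are limma standard errors) for each of the 9 genes, against 3 empty vector arrays (circles) and against replicate 3 alone (diamonds). AT5G17350, AT1G77640, AT4G39670 and AT2G32190 lie at 0.82 or more against either control, and AT5G50915, TRM28 and IQD24 change sign between them.

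In leaf 11 there was 1 array per genotype, so no difference has a replicate check. Of the leaf probe sets, 42.4% had exactly the same value on at least 2 of the 3 arrays, among them AT1G77640, AT5G66650, TRM28 and IQD24. IQD24 read 6.38 on all 3 arrays, and TRM28 read 3.34 in the ANAC059 line, 3.25 in the ANAC092 line and 3.25 in wild type, close to the lowest value of the set (2.97). AT5G66650 read 5.63 in the ANAC059 line, 5.62 in the ANAC092 line and 5.63 in wild type, below the median of the leaf set (5.76). AT1G77640 read 5.86 in the ANAC059 line and 5.57 in both the ANAC092 line and wild type. None of these 4 genes differed from wild type by more than 0.29 in either line.

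The other 5 genes moved in no shared direction in leaf 11. AT5G17350 read 7.11 in the ANAC059 line and 6.42 in the ANAC092 line, against 6.10 in wild type, so that its difference in the ANAC059 line was 1.01 (0.83 after quantile normalization). AT2G32190 read 7.80 in the ANAC059 line and 6.89 in the ANAC092 line, against 8.03 in wild type, a difference of -1.14 in the ANAC092 line. AT4G39670 read 8.66 in the ANAC059 line and 7.84 in the ANAC092 line, against 8.22 in wild type. It was thus above wild type in one line and below it in the other. AT5G50915 read 6.64 in the ANAC059 line and 7.33 in the ANAC092 line, against 6.58 in wild type, and AT1G35210 read 7.65 and 7.69 in these lines against 7.55 in wild type. In the ANAC059 line 1 of the 9 genes was higher by at least 1 and none lower, where 4.65% and 0.611% of all probe sets were. In the ANAC092 line none was higher by at least 1 and 1 was lower, where 0.980% and 0.822% were. The median difference of the 9 genes was 0.09 in the ANAC059 line and 0.00 in the ANAC092 line, beside 0.00 in each over all probe sets.

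**Figure D4:**
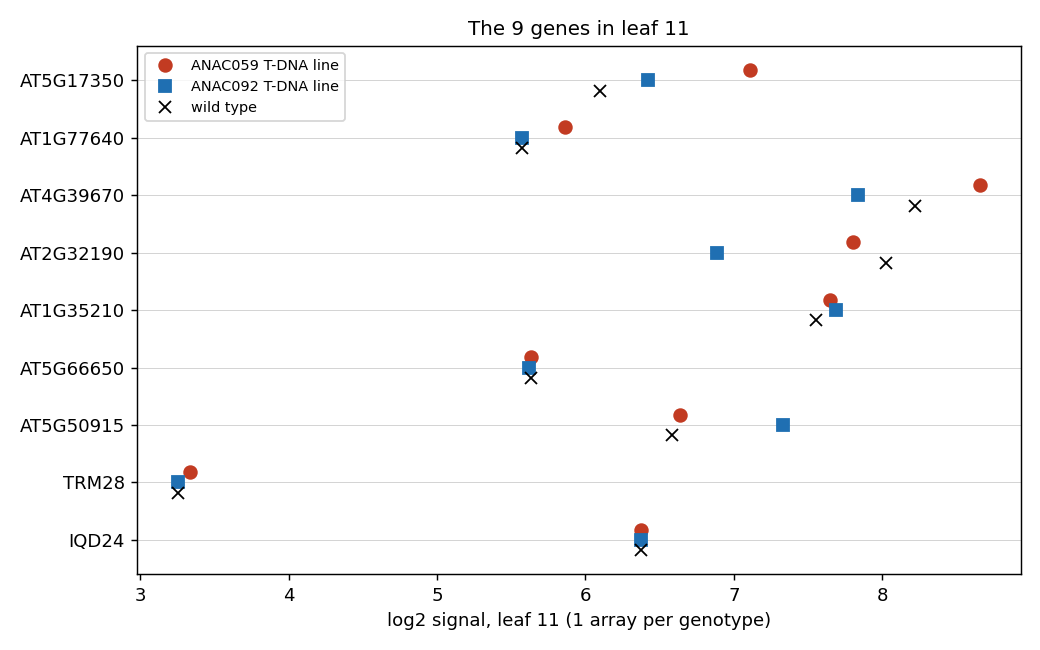
Log2 signal in leaf 11 (horizontal axis) of the 9 genes on 1 array of the ANAC059 T-DNA line, 1 of the ANAC092 T-DNA line and 1 of wild type. IQD24 has the same value on all 3 arrays, AT5G17350 is highest in the ANAC059 line and AT2G32190 is lowest in the ANAC092 line.

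Relatives of these genes were counted from 8 lists named by family or response; most listed genes had no probe set of their own under this annotation and were not examined. Of 13 DREB relatives of AT1G77640, 5 were measured, and AT1G44830 was the 1 called higher after ANAC059 induction (0.88 ± 0.13 SE, limma adjusted p = 0.0205, lost without ANAC059 induced replicate 2 or empty vector replicate 2, at 0.0701 at most), where 1.65% of all probe sets were, while none was called after ANAC092 induction, where AT1G44830 was at 0.40 (adjusted p = 0.137). AT1G19210 was at 0.20 and AT1G22810 at 0.19 after ANAC059 induction, and neither passed (limma adjusted p = 0.349 and 0.361). The remaining measured DREB relatives were below 0 there, at -0.23 and -0.12. Of 25 rapid stress transcription factor genes, 2 were measured, and both were called higher after ANAC059 induction, beside the same 1.65% of all probe sets. They were STZ, a zinc finger repressor gene of the cold and salt response (0.54, limma adjusted p = 0.0436), and WRKY53, a senescence and defence regulator (0.65, adjusted p = 0.0447). Each passed in 1 of the 4 fits that lacked an array: STZ without ANAC059 induced replicate 1 (limma adjusted p 0.0480 to 0.180 over the 4) and WRKY53 without empty vector replicate 2 (0.0420 to 0.169). After ANAC092 induction STZ was at 0.45 and WRKY53 at 0.38, and neither passed (adjusted p = 0.132 and 0.648). WRKY53 was itself 0.91 higher in empty vector replicate 3 than in replicates 1 and 2, and STZ was at -0.28 there. In leaf 11, STZ and WRKY53 differed from wild type by 1.27 and 1.91 in the ANAC059 line and by 0.45 and -0.05 in the ANAC092 line.

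Other measured members of the families of IQD24 and TRM28 were not called in either induction against all controls. Of 24 other IQD genes, 11 were measured and none was called against all controls (median 0.01 after ANAC059 and -0.10 after ANAC092 induction). Against the single array of empty vector replicate 3, 2 were called lower after ANAC092 induction, where 0.198% of all probe sets were. These were IQD23 (-1.06, limma adjusted p = 0.0353) and IQD22 (-0.98, adjusted p = 0.0499), and both lay higher in replicate 3 than in replicates 1 and 2, by 0.68 and 0.67; IQD16 was at -0.02. Both calls were lost without ANAC092 induced replicate 1 or without replicate 3. Of 33 other TRM genes, 13 were measured and none was called (median -0.03 after ANAC059 and -0.11 after ANAC092 induction); TRM18 was at 0.57, TRM25 at -0.40 and TRM20 at -0.32 after ANAC092 induction.

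Of 15 bHLH genes of the BEE and CIB groups, 4 were measured and none was called in either induction; AT2G42300 was at 0.42 after ANAC059 induction and 0.82 higher in empty vector replicate 3 than in replicates 1 and 2, AT3G57800 was at 0.33 and 0.44, and BPEp was at -0.06 and -0.11. Of 6 genes of the calcium uniporter family and its regulator, 2 were measured and none was called, with AT4G32060 at -0.20 and AT1G09575 at -0.20 after ANAC059 induction and -0.29 and -0.21 after ANAC092 induction. Of 5 CYSTM and related peptide genes, 2 were measured. AT3G22240 was called higher on the ANAC092 arrays against empty vector replicate 3 alone (1.55, limma adjusted p = 0.0243), where 2.87% of all probe sets were, but not against all controls (0.60), and the call was lost without ANAC092 induced replicate 1 or 3. AT1G05340 was at 1.54 and 0.90 in these comparisons without passing. After ANAC059 induction AT3G22240 was at -0.36 and AT1G05340 at 0.28. Like AT2G32190, both were lower in empty vector replicate 3 than in replicates 1 and 2, by -1.43 and -0.96. None of the 4 listed glycolipid transfer protein genes was measured.

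Genes with the most similar profiles were ranked by Pearson's r over the 13 profiles, each centred within its set; these stand for 11 hybridisations, share control arrays and rest mostly on the group differences, so r is a description. The profile closest to the mean of the 9 genes was that of AT1G44830, the DREB relative above (r = 0.953), followed by AT4G21140 (0.915), AT3G50340 (0.914), AT3G14200 (0.912) and AT5G02480 (0.911). Among single genes, AT1G77640 and AT4G39670 were closest to each other (0.943). TRM28 was closest to AT1G15410 (0.990), IQD24 to AT5G48990 (0.982), AT5G50915 to AT1G73470 (0.967), AT5G66650 to AT1G44830 (0.956) and AT5G17350 to AT1G58420 (0.950). AT1G35210 was closest to UBC16, a ubiquitin-conjugating enzyme gene (0.924), and AT2G32190 to AT5G16950 (0.910). AT1G15410 and AT5G48990 were higher after ANAC059 induction by 0.55 and 0.33 and in empty vector replicate 3 by 0.37 and 0.24, so their profiles had the shape of TRM28 and IQD24 at a smaller size.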

How the data were processed

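The deposited values are log2 signals that the authors made with RMA, per the submitters' processing notes; per the labels, the ANAC059, ANAC092 and leaf arrays were normalized in 3 separate sets. The RMA version, the array's build and detection calls are not given in the sources used here. Quantile normalization within a set would hide a change shared by most transcripts, and the number of arrays limits the precision. Of 22810 probe sets, 64 controls were left out; of the other 22746, 13513 were annotated to 1 gene, 503 to several and 8730 to none, and loci and symbols came from the gene table of TAIR10.1, used for names only.

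Groups were taken from the sample titles. Within a set, linear models with the group as sole term were fitted with limma 3.58.1 (lmFit, eBayes; R 4.3.3) and tested on simulated data. Tests were two-sided, and p-values were adjusted by Benjamini-Hochberg across the 22746 probe sets and called under 0.05. The ANAC059 values of the 9 genes and all leaf differences carry no test. A leaf difference was counted from 1 on the log2 scale. Alternatives left out each array, added the replicate number, changed the normalization, the variance prior or the controls, or averaged induced replicates 1 and 3. Another left out dim probe sets of the ANAC092 set (mean under the set's median, 7.65), among them those of AT5G17350, AT1G35210 and TRM28. Named genes are the 9, their neighbours at the rule's edge, up to 3 genes per list by the size of the ANAC092 difference, and the profiles of highest r. AT1G15410 and AT5G48990 apart, whose values were given after being seen, no other gene was added. The 9 genes, the lists and the tests were chosen with earlier results of these data known. The TRM list was narrowed, after its members were seen, to genes annotated as TON1 recruiting motif proteins; 4 tRNA modification genes that share the symbol were left out. No protein or promoter sequence was used here.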

Additional observations from a re-analysis of the deposited data

How the results depend on the processing

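After ANAC092 induction 2 of the 9 genes were called higher against all controls. The count was 1 to 4 when single arrays were left out. The fit with empty vector replicates 1 and 2 as the only controls, which is the one without replicate 3, gave the 4 (AT2G32190 and AT5G66650 in addition). Those control arrays took part in the choice of the genes. Without ANAC092 induced replicate 3, or without empty vector replicate 1 or 2, the count was 1, AT4G39670. It was 2 or 3 under the other alternatives, including 3 with the replicate block, which added AT2G32190 (limma adjusted p = 0.0301). The replicate numbers were not taken as pairs: deviations of same-numbered arrays correlated at -0.11, 0.27 and 0.10 in the ANAC092 set and at 0.03 in the ANAC059 set, and not every array correlated best with its own number. With the replicate block the median ANAC059 rise stayed at 1.21.

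Against empty vector replicate 3 alone 1 gene was called higher; the count was 0 to 5 over the fits without 1 induced array, 4 in the 3-group fit, 3 with quantile normalization and 3 without dim probe sets, a filter that left 6 of the 9 genes. Over all probe sets the ANAC092 comparison called 507, between 209 (without empty vector replicate 2) and 787 (without empty vector replicate 3), and 242 with induced replicates 1 and 3 averaged. Against empty vector replicate 3 alone it called 698, between 0 and 6027 without 1 induced array, 1580 in the 3-group fit and 2269 of 11401 without dim probe sets. The fits without an array hold fewer arrays, and causes of the changed counts were not tested. The median ANAC059 rise was 1.14 to 1.28 without 1 array and 1.17 with quantile normalization. The median leaf difference in the ANAC059 line was -0.04 with quantile normalization. Background and detection could not be varied, since no scanner values were used.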

Other observations

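Of the genes just outside the edge of the rule, AT5G59845 rose by 2.68 after ANAC092 induction (limma adjusted p = 0.00280) and AT1G58170 by 1.64 (adjusted p = 0.000200), beside 1.20 for the highest of the 9, and both passed in all 6 fits that lacked an array. CML37 was at 0.34 (adjusted p = 0.319). AT5G59845 was lower in empty vector replicate 3 than in replicates 1 and 2, by -0.57, and AT1G58170 and CML37 lay at -0.12 each. Of the calcium sensor genes left out, AT3G01830 rose by 1.58 (adjusted p = 0.0172) and AT4G27280 by 1.38 (adjusted p = 0.0136) after ANAC092 induction. The call of AT3G01830 was lost without ANAC092 induced replicate 1 or 3 or empty vector replicate 1 (limma adjusted p 0.0336 to 0.0842), and that of AT4G27280 without any 1 of the ANAC092 induced arrays or without empty vector replicate 1 (0.00929 to 0.0673). AT5G39670 was at 0.43 (adjusted p = 0.541). In empty vector replicate 3 the displacements from replicates 1 and 2 were -0.63 for AT3G01830, -0.68 for AT4G27280 and 0.06 for AT5G39670.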
